A study of Mus musculus with 6 samples.

Results

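The 10 genes described here are keratins of simple epithelia, which other epithelia also express, and genes used as markers of mesothelium or of the epicardium, the sheet of cells that covers the heart. The keratins Krt7, Krt8, Krt18 and Krt19 and the mesothelial or epicardial genes Msln, Upk3b, Upk1b, Wt1, Lrrn4 and Tbx18 were chosen by name from the 54532 genes listed for the series. All 10 were found through their Ensembl gene identifiers in the GENCODE M21 annotation, and all 10 passed the filter on low values that left 13794 genes for testing.

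The epicardium is the mesothelial layer on the outer surface of the heart, and its cells are built like a simple epithelium. Simple keratins are intermediate filament proteins that assemble as obligate pairs of a type II chain (Krt7 or Krt8) with a type I chain (Krt18 or Krt19). During development epicardial cells enter the heart wall through an epithelial to mesenchymal transition and contribute fibroblasts and mural cells, while mesothelin and uroplakins remain familiar surface markers of mesothelium.

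RNA-seq was performed on cultures labelled as primary cardiomyocytes from neonatal mouse heart. The AdCre group held 3 samples with the genotype label Rit1 M90I/+, infected with an adenovirus for Cre recombinase fused to GFP, and the AdGFP group held 3 samples with the label Rit1 +/+, infected with an adenovirus for GFP. Per the methods of the study, cells of both groups came from neonates whose Rit1 locus switches to the M90I variant, found in Noonan syndrome, when Cre is present, and they were infected on day 3 after isolation. The hearts were dissociated with collagenase and the suspension was only depleted of cells that adhered early to plastic, so the cultures could hold the other cells of the heart.

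Cre and the M90I variant came together in every AdCre sample, so their effects cannot be told apart. Recovered reads amounted to 25.25 to 26.51 M (megareads) per sample in AdGFP and 25.95 to 32.39 M in AdCre. Rit1 itself, the targeted gene, was measured at 7.66 to 9.01 FPKM (fragments per kilobase of exon, relative to sequencing depth) in AdGFP and 8.90 to 9.58 FPKM in AdCre, but a gene-level value does not separate the variant transcript from the wild-type one. The 12 cardiomyocyte markers checked against the label summed to 7310 to 13086 FPKM in AdGFP and 4402 to 6718 FPKM in AdCre, and 11 fibroblast markers to 2680 to 4746 and 2403 to 3449 FPKM. Macrophage and endothelial markers were also present, and the 10 mesothelial genes and keratins therefore report on cells within a mixed culture, where fewer cells of a type and less RNA per cell cannot be told apart.

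With all samples, the mean log2 level of each of the 4 keratins was higher in AdCre and that of each of the 6 mesothelial or epicardial genes was lower, but 5 of these 10 signs changed when single samples were left out. Without AdGFP replicate 3 the differences of Upk3b (0.17), Upk1b (0.63) and Wt1 (0.09) were positive and that of Krt19 (-0.30) negative, and without AdGFP replicate 1 that of Krt7 was negative (-0.35). Krt8 was 2.54-fold and Krt18 1.76-fold higher in the AdCre means, with every AdCre sample above every AdGFP sample. Tbx18 was lower in every AdCre sample, at 0.729 of the AdGFP mean, and Lrrn4 and Msln were at 0.388 and 0.394 of the AdGFP means with ranges that overlapped. The median log2 difference was 0.66 over the keratins and -0.56 over the 6 other genes, beside 0.00 over all genes tested. Without AdGFP replicate 3 the median over the 6 genes was -0.14 and that over the keratins 0.91. Over the 6 genes it was also nearer to 0 without AdCre replicate 1 (-0.34) or replicate 2 (-0.37), and further from 0 without AdGFP replicate 1 (-1.20) or AdCre replicate 3 (-1.17), and over the keratins it was 1.09 without AdGFP replicate 1.

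None of the 10 genes passed the test that ignored replicate numbers (limma on log2(FPKM + 0.1), adjusted p under 0.05 over all genes tested), which called 1 gene or 0.00725% of those tested. Without adjustment the same test placed 1402 genes, or 10.2%, under 0.05. Samples with the same replicate number deviated together from their group means, so the number was also fitted as a block, which compares AdCre with AdGFP within each of 3 pairs. With the block 4 of the 10 passed, Krt8 and Krt18 as higher and Lrrn4 and Tbx18 as lower, beside 848 genes or 6.15% of all tested, 364 of them higher (2.64%) and 484 lower (3.51%). In the blocked fit none of the 10 passed without pair 2 or without pair 3, nor did any without the filter on low values or without the intensity trend, whereas 7 of them passed without pair 1, Tbx18 not among them.

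**Figure D1:**
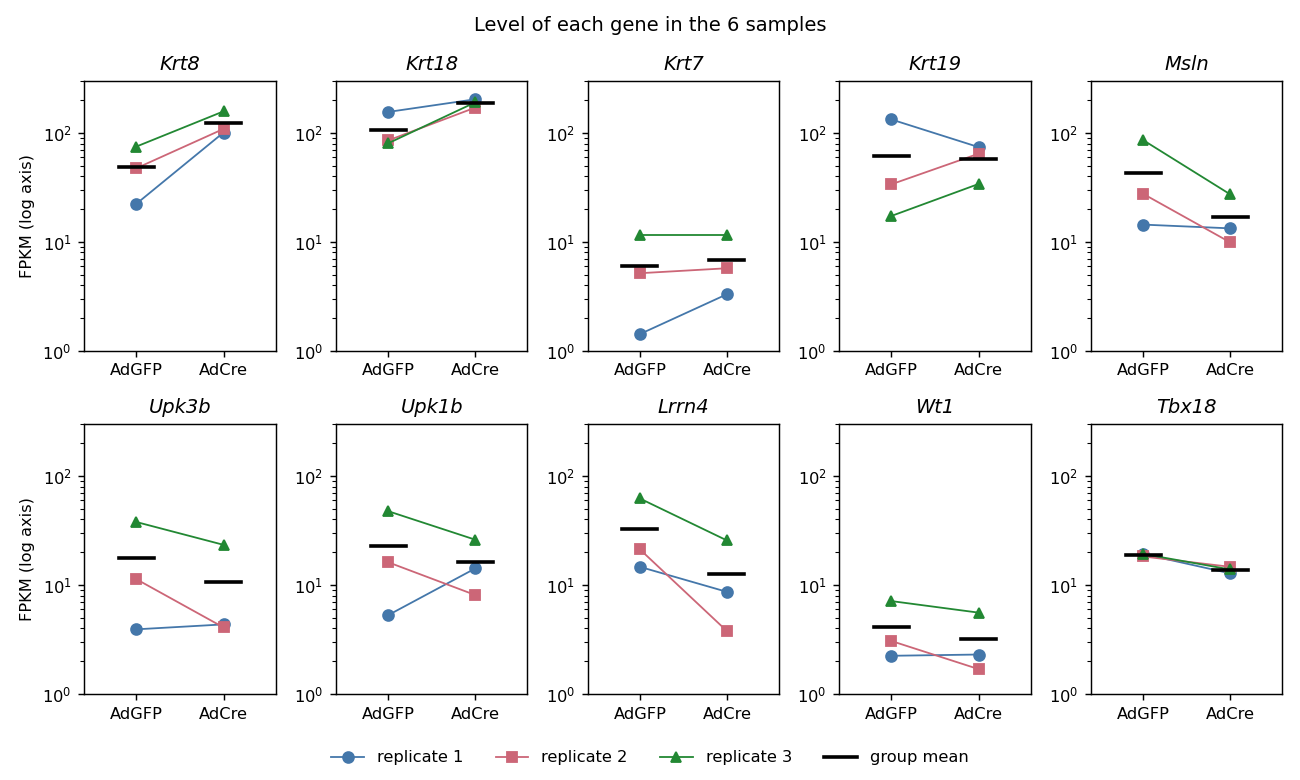
FPKM on a log axis for each of the 10 genes in the 3 AdGFP and 3 AdCre samples, with lines joining samples of the same replicate number and black bars at the group means. Krt8 and Krt18 lay higher in all 3 AdCre samples and Tbx18 lower, while the other genes spread widely within a group.

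Krt8 is the type II keratin of simple epithelia (ENSMUSG00000049382, chromosome 15, 101996698 to 102004482, minus strand, GRCm38). Its levels were 22.4, 47.5 and 75.1 FPKM in AdGFP replicates 1, 2 and 3 and 101, 109 and 158 FPKM in AdCre replicates 1, 2 and 3. The lowest AdCre sample was above the highest AdGFP sample, and in both groups replicate 1 was lowest and replicate 3 highest. The log2 difference was 1.48 ± 0.42 (SE, adjusted p = 0.329 in limma), and with the replicate block the SE was 0.21 (adjusted p = 0.0269, 95% interval 0.95 to 2.01). The exact two-sided permutation test gave p = 0.1, the smallest that 3 samples against 3 allow. Of the 50-base words in Krt8 transcripts, 26.9% also occurred in transcripts of other genes, chiefly the pseudogene Krt8-ps, which was itself listed at 0.0835 to 0.301 FPKM. Reads within the shared words do not identify their gene, and their effect on the Krt8 value was not tested.

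Krt18 is the type I partner of Krt8 (ENSMUSG00000023043, chromosome 15, 102028180 to 102032027, plus strand) and lies 23.7 kb from it. It had the highest mean of the 10 genes in both groups, at 156, 85.4 and 80.4 FPKM in AdGFP and 204, 171 and 191 FPKM in AdCre, replicates 1 to 3 in that order. The AdGFP replicate 1 sample stood well above the other AdGFP samples, and still below all AdCre samples. The log2 difference was 0.88 ± 0.26 (SE, adjusted p = 0.34 in limma), and the SE was 0.17 with the block (adjusted p = 0.0432, 95% interval 0.47 to 1.29). Within pairs the differences were 0.38, 1.00 and 1.25, the smallest where the AdGFP level was already high.

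The ratio of Krt8 to Krt18 in FPKM was 0.144, 0.557 and 0.934 in AdGFP and 0.498, 0.639 and 0.827 in AdCre. The 2 chains that pair in filaments therefore did not hold a fixed ratio of transcripts between replicates, and the groups overlapped (exact permutation p = 0.7). In AdGFP replicate 1 the type I chains Krt18 and Krt19 summed to 289 FPKM against 23.8 FPKM for the type II chains Krt7 and Krt8, whereas in AdGFP replicate 3 the sums were 97.7 and 86.6 FPKM. The 4 keratins together summed to 172 to 313 FPKM in AdGFP and 351 to 395 FPKM in AdCre, with no overlap.

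Since Krt8 and Krt18 are neighbours and both passed with the block, the stretch from 250 bases before the RefSeq start to 10 after it is shown for each, 5′ to 3′ on the strand of the gene (GRCm38.p6). For Krt8 it is chr15:102004333-102004592 on the minus strand, and for Krt18 chr15:102027966-102028225 on the plus strand. Capitals mark matches to any of 5 short motifs searched on both strands over 300 bases, each with its reverse complement. They were TGACTCA for the AP-1 factors, then CCGGAAG for the ETS factors, then GGGCGG for the GC box, then TATAAA for the TATA box, and finally GGAATG for the TEAD factors.
Krt8: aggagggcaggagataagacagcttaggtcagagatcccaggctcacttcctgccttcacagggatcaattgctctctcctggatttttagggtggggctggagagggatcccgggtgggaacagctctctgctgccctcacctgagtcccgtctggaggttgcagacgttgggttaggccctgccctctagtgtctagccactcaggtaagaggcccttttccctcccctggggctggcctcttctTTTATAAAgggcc
Krt18: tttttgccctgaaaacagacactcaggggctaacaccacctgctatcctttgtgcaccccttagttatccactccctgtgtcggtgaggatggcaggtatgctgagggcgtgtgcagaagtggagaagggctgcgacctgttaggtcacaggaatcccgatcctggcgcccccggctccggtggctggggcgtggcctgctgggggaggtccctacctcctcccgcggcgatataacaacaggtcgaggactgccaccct

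The Krt8 window held TATAAA and, overlapping it on the other strand, TTTATA at the annotated start itself, and 13.6% of 32851 mouse promoter windows of the same length hold this motif on either strand. The Krt18 window held no match to any of the 5 motifs. Of the 6 members with a promoter entry (Krt7, Krt8, Krt18, Lrrn4, Tbx18 and Upk3b), none held the AP-1 or the ETS letters, which occur in 5.2% and 8.86% of all windows. Krt7 held the GC box, found in 35.7% of all windows.

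Krt19 is a type I keratin of simple and ductal epithelia (ENSMUSG00000020911, chromosome 11, 100140810 to 100148665, minus strand). Its levels were 133, 33.8 and 17.3 FPKM in AdGFP and 74.2, 64.5 and 34.0 FPKM in AdCre. Replicate 1 was highest in both groups and replicate 3 lowest, the reverse of the order for Krt8. The pair differences were -0.85, 0.93 and 0.98 on the log2 scale, and the mean difference of 0.35 ± 0.71 (SE) did not pass either test (adjusted p = 0.931 in limma, or 0.592 with the block). Without AdGFP replicate 3 the difference was -0.30, and the plain means of 61.5 and 57.6 FPKM in AdGFP and AdCre had the opposite order to the log2 means.

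Krt7, the type II keratin found with Krt19 in mesothelium and ducts (ENSMUSG00000023039, chromosome 15, 101411043 to 101430313, plus strand), was the lowest of the keratins. Its levels were 1.42, 5.15 and 11.5 FPKM in AdGFP and 3.30, 5.72 and 11.5 FPKM in AdCre. In both groups replicate 1 was lowest and replicate 3 highest, replicate 3 was level between the groups, and 89.0% of the variance went with the number. The log2 difference was 0.44 ± 0.76 (SE, adjusted p = 0.912 in limma, or 0.309 with the block), and it was -0.35 without AdGFP replicate 1.

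The ratio of Krt7 to Krt8, both type II chains, was 0.0635, 0.108 and 0.153 in AdGFP and 0.0326, 0.0523 and 0.0726 in AdCre. In each pair the ratio was lower in AdCre by nearly the same amount, with log2 differences of -0.96, -1.05 and -1.07, although the groups overlapped (exact permutation p = 0.2). Krt8 therefore stood higher in AdCre relative to Krt7 by about the same factor in each of the 3 pairs.

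Msln encodes mesothelin, the surface glycoprotein of mesothelial cells (ENSMUSG00000063011, chromosome 17, 25748613 to 25754378, minus strand). Its levels were 14.4, 27.6 and 86.0 FPKM in AdGFP and 13.3, 9.89 and 27.3 FPKM in AdCre. Replicate 3 was highest in both groups, and the groups overlapped, with pair 1 nearly level. The pair differences were -0.12, -1.47 and -1.65, and the mean of -1.08 ± 0.66 (SE) did not pass (adjusted p = 0.658 in limma, or 0.0898 with the block). It was -0.38 without AdGFP replicate 3 and -1.66 without AdGFP replicate 1. Its FPKM values correspond to an exon length of 2114 bases, not the 3064 bases of the annotation used here, so its level relative to other genes depends on that choice.

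Lrrn4 encodes a leucine-rich repeat membrane protein used as a mesothelial marker (ENSMUSG00000043110, chromosome 2, 132868305 to 132880891, minus strand). Its levels were 14.7, 21.3 and 62.4 FPKM in AdGFP and 8.66, 3.78 and 25.7 FPKM in AdCre. Every pair was lower in AdCre, with differences of -0.76, -2.46 and -1.28, but the high AdCre replicate 3 sample overlapped the AdGFP range. The log2 difference was -1.50 ± 0.77 (SE, adjusted p = 0.585 in limma), with an SE of 0.30 in the blocked fit (adjusted p = 0.0492, 95% interval -2.25 to -0.75). The difference was -0.85 without AdCre replicate 2 and -0.90 without AdGFP replicate 3. The blocked call lay at the threshold and was lost at adjusted p = 0.0525 when the log values were centred on their medians.

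Upk3b encodes uroplakin 3b, a membrane protein of mesothelium (ENSMUSG00000042985, chromosome 5, 136038496 to 136046487, plus strand). It was measured at 3.92, 11.3 and 37.9 FPKM in AdGFP and at 4.35, 4.08 and 23.4 FPKM in AdCre. Its difference of -0.66 ± 0.94 (SE) did not pass (adjusted p = 0.889 in limma, or 0.217 with the block), and without AdGFP replicate 3 it was 0.17. Upk1b, the tetraspanin among the uroplakins (ENSMUSG00000049436, chromosome 16, 38773184 to 38800328, minus strand), was measured at 5.29, 16.2 and 47.7 FPKM in AdGFP and at 14.2, 8.10 and 26.1 FPKM in AdCre. Its pair differences were 1.41, -0.99 and -0.87, and the mean of -0.15 ± 0.79 (SE) changed sign without AdGFP replicate 3, to 0.63, and without AdCre replicate 2, to 0.26 (adjusted p = 0.979 in limma with all samples, or 0.88 with the block). For both uroplakins replicate 3 was highest in either group, the groups overlapped, and the spread between replicates was far larger than the difference between groups.

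Wt1 encodes the zinc finger transcription factor that marks the developing epicardium (ENSMUSG00000016458, chromosome 2, 105126529 to 105173616, plus strand). It had the lowest mean of the 10 genes in both groups, at 2.24, 3.06 and 7.12 FPKM in AdGFP and 2.30, 1.69 and 5.58 FPKM in AdCre. Replicate 3 was highest in both groups, as for Msln and the uroplakins, and pair 1 was level. The log2 difference of -0.38 ± 0.54 (SE) did not pass (adjusted p = 0.889 in limma, or 0.259 with the block), and was 0.09 without AdGFP replicate 3.

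Tbx18 encodes a T-box transcription factor of the epicardium, also expressed in mural cells (ENSMUSG00000032419, chromosome 9, 87702800 to 87731260, minus strand). It was measured at 19.3, 18.3 and 19.3 FPKM in AdGFP and at 12.8, 14.7 and 13.9 FPKM in AdCre. All AdCre samples were below all AdGFP samples, and the replicates of a group lay close together, at 19.0 ± 0.581 and 13.8 ± 0.964 FPKM (SD, n = 3). The log2 difference was -0.45 ± 0.11 (SE, adjusted p = 0.267 in limma), with an SE of 0.09 in the blocked fit (adjusted p = 0.0441, 95% interval -0.67 to -0.24). The blocked adjusted p was 0.0646 with the values rescaled to TPM, where the difference was -0.37. An antisense gene, D030062O11Rik, covers 20.6% of the Tbx18 exon bases and was listed at 0.309 to 0.865 FPKM, and the use of strand in the counting is not given in the sources used here.

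For the 2 mesothelial or epicardial genes that passed with the block, the same stretch around the RefSeq start is shown, at chr2:132880853-132881112 for Lrrn4 and chr9:87731251-87731510 for Tbx18, both on the minus strand and written 5′ to 3′, with motif matches in capitals.
Lrrn4: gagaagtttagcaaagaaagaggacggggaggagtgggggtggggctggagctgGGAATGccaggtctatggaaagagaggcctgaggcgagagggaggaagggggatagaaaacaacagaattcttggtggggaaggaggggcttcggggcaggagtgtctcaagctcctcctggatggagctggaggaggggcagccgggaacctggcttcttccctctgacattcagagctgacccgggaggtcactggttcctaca
Tbx18: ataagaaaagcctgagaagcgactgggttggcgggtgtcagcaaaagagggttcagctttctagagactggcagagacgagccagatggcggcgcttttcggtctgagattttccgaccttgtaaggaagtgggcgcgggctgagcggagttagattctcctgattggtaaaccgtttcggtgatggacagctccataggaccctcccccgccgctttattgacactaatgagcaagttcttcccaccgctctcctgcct

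The Lrrn4 window held the TEAD letters GGAATG, as did that of Upk3b on the other strand, and 14.7% of all windows hold them. The Tbx18 window held no match to the 5 motifs. Krt19, Msln, Upk1b and Wt1 had no entry among the promoter sequences.

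**Figure D2:**
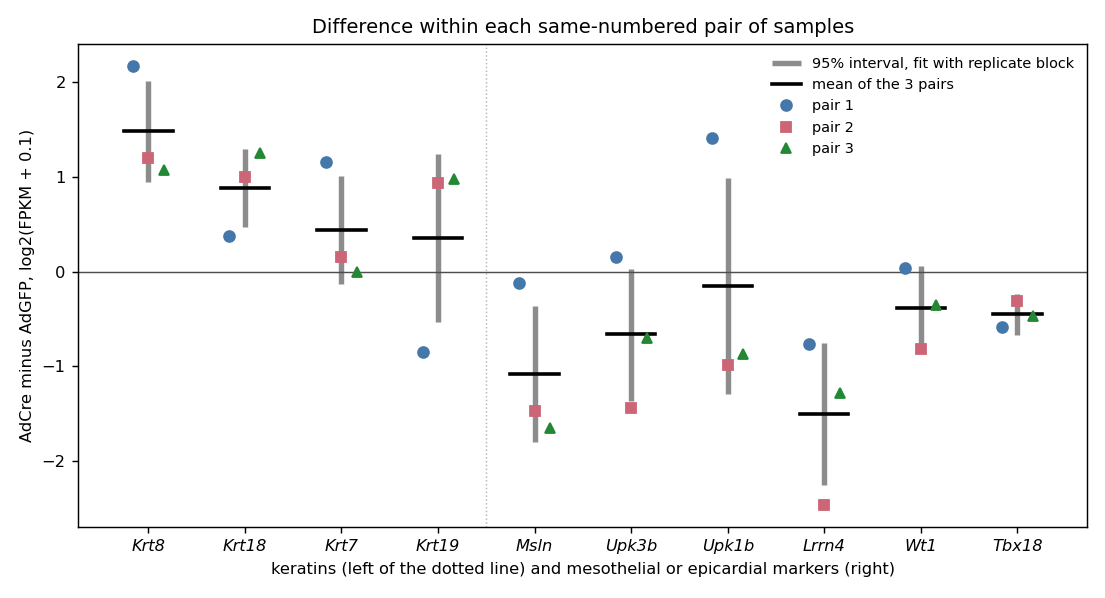
Difference between AdCre and AdGFP on the log2(FPKM + 0.1) scale within each same-numbered pair (symbols), with the mean of the 3 pairs (black bar) and its 95% interval in the fit with the replicate block (grey). Krt8 and Krt18 were above 0 and Lrrn4 and Tbx18 below 0 in all pairs, while pair 1 lay on the other side of 0 from pairs 2 and 3 for Krt19, Upk3b, Upk1b and Wt1.

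By AdGFP mean the levels ran from Krt18 at 107 ± 42.3 FPKM (SD, n = 3 throughout) through Krt19 at 61.5 ± 62.9, Krt8 at 48.4 ± 26.4, Msln at 42.7 ± 38.1, Lrrn4 at 32.8 ± 25.8, Upk1b at 23.1 ± 22.0, Tbx18 at 19.0 ± 0.581, Upk3b at 17.7 ± 17.9 and Krt7 at 6.01 ± 5.08 to Wt1 at 4.14 ± 2.62 FPKM. Each gene differed from the next in this order by less than the larger of their standard deviations. In AdCre the order began with Krt18 at 189 ± 16.4 and Krt8 at 123 ± 30.7 FPKM, whose difference exceeded both standard deviations, and Krt8 stood above Krt19 at 57.6 ± 21 FPKM.

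Most of the 10 genes spread widely between replicates. The highest AdGFP sample exceeded the lowest by a factor of 9.67 for Upk3b, 9.02 for Upk1b, 8.05 for Krt7 and 7.73 for Krt19, but by 1.06 for Tbx18, in FPKM. With 0.1 added to every value, the median of this factor was 5.07 over the 10 genes and 1.36 over all genes tested. Each member was covered by 248 to 9369 reads per sample, for a counting error of 1.03% to 6.35%, so counting was a small part of this spread.

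The replicate number accounted for 87.3% of the variance of Wt1, 86.9% of Upk3b and 71.0% of Upk1b over the 6 samples, and for 1.54% of that of Tbx18. Group accounted for 92.8% of the variance of Tbx18, 66.2% of Krt18, 64.9% of Krt8 and 0.525% of Upk1b. The median share with the replicate number, 65.9% over the 10 genes, was close to the 59.2% over all genes tested. What a number marks, such as a litter, a culture day or a dissociation, is not given in the labels.

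**Figure D3:**
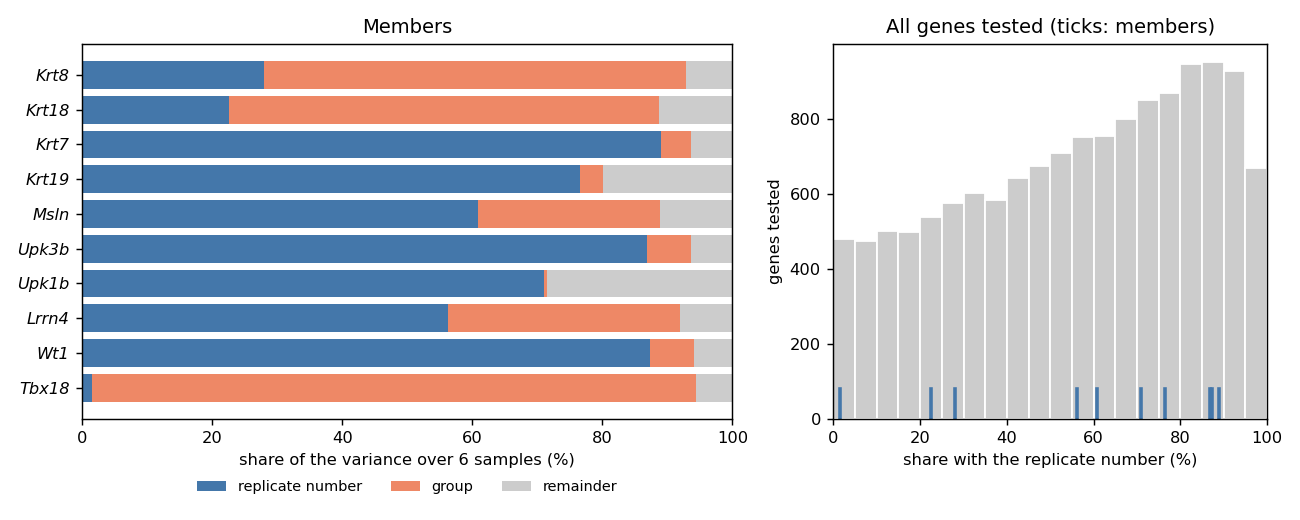
Left, the share of each gene's variance over 6 samples that went with replicate number, with group and with the remainder, in percent. Right, the share with replicate number over all 13794 genes tested as a histogram, with blue ticks for the members, from 1.54% (Tbx18) to 89.0% (Krt7).

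The groups did not overlap for 3 of the 10 genes (Krt8, Krt18 and Tbx18), beside 2121 genes or 15.4% of all tested, with 7.36% higher in AdCre and 8.02% lower. All 3 pairs pointed one way for 6 of the 10, higher for Krt7, Krt8 and Krt18 and lower for Msln, Lrrn4 and Tbx18, beside 48.4% of all genes tested (23.9% higher and 24.5% lower). The third pair of Krt7 was level, at 0.00. Both counts rest on 10 genes, and whether they exceed the shares over all genes was not tested. The median absolute log2 difference was 0.56 over the 10 genes and 0.17 over all genes.

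Ratios between members within a sample do not depend on the library's scaling. The ratio of Krt8 to Msln was 1.55, 1.72 and 0.873 in AdGFP and 7.63, 11 and 5.78 in AdCre. The groups did not overlap, and the log2 difference of the ratio was 2.57, with 2.30, 2.68 and 2.73 in the 3 pairs (exact two-sided permutation p = 0.1, the smallest possible). These pair differences lay closer together than those of either gene alone, which ran from 1.07 to 2.17 for Krt8 and from -1.65 to -0.12 for Msln. The same did not hold for Krt18 relative to Msln, at 10.8, 3.09 and 0.935 in AdGFP and 15.3, 17.3 and 7 in AdCre, where the groups overlapped (exact permutation p = 0.2) and the pair differences of 0.50, 2.48 and 2.90 lay further apart than those of either gene.

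Lrrn4 relative to Upk1b was 2.78, 1.32 and 1.31 in AdGFP and 0.610, 0.467 and 0.985 in AdCre, without overlap of the groups (exact permutation p = 0.1). The groups overlapped for Lrrn4 relative to Msln, at 1.02, 0.771 and 0.725 in AdGFP and 0.652, 0.383 and 0.941 in AdCre, and for Upk1b relative to Upk3b, at 1.35, 1.44 and 1.26 in AdGFP and 3.26, 1.99 and 1.12 in AdCre (p = 0.4 for each in the same exact test). Wt1 relative to Msln was 0.155, 0.111 and 0.0828 in AdGFP and 0.173, 0.171 and 0.204 in AdCre, without overlap (p = 0.1 in the same exact test). In all 11 ratios were examined, chosen with the levels known, and the exact test of none can fall below 0.1 before adjustment for their number. The sum of Msln, Upk3b, Upk1b and Lrrn4 was 38.4, 76.4 and 234 FPKM in AdGFP and 40.5, 25.9 and 103 FPKM in AdCre, lowest in replicate 1 of AdGFP but in replicate 2 of AdCre.

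Across the 6 samples, Msln was nearest to Wt1 and Lrrn4 among the members, with root mean square differences of 0.45 between their centred log2 profiles. Upk1b was 0.49 from Wt1 and Upk3b 0.51 from Msln. Krt8 and Krt18 were farther apart, at 0.88, and Krt19 and Upk3b were the most distant pair at 2.19. Tbx18 was 0.70 from Wt1 and 0.92 from Msln.

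The protein-coding genes whose profile was nearest to the mean of the 6 mesothelial genes, out of 12419 compared, were Kcnj3 and Dpysl5 (0.15), Igfbp6 (0.20), and Mst1r and Fads6 (0.22). Igfbp6, a secreted insulin-like growth factor binding protein, was measured at 11.3, 21.7 and 56.1 FPKM in AdGFP and at 13.4, 11.3 and 23.0 FPKM in AdCre, high in replicate 3 of both groups like Msln. The genes nearest to the mean of the 4 keratins were Ecscr (0.08), Pcdhgc4 (0.10), and Cdc42bpg, Serpine2 and Rai14 (0.12), whereas the keratins themselves lay 0.37 to 1.04 from their own mean. The 6 mesothelial genes lay 0.22 to 0.80 from theirs, Wt1 nearest and Tbx18 farthest. Among the genes compared, Wt1, Msln, Upk1b, Upk3b and Lrrn4 ranked 5, 8, 60, 98 and 121 and Tbx18 2920. The keratins ranked 2312 (Krt18) to 12151 (Krt19) for their own mean. Each member is itself part of its mean. The mesothelial mean therefore does not stand for Tbx18, nor the keratin mean for each of the keratins.

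Among 25 other mesothelial and epicardial genes, 19 were tested, of which 4 were higher and 15 lower in AdCre, with a median log2 difference of -0.39. None passed without the block, and with it 2 passed as higher and 4 as lower, against 6.15% of all genes. Sema3d, an epicardial semaphorin, was measured at 7.35, 11.5 and 29.7 FPKM in AdGFP and 1.92, 2.21 and 7.12 FPKM in AdCre, and passed with the block (log2 difference -2.09, limma, adjusted p = 0.0051). Every AdCre sample of Sema3d was below every AdGFP sample, and in both groups replicate 3 was the highest, as for Msln.

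Aldh1a1, a retinaldehyde dehydrogenase, and Gpm6a, a mesothelial membrane glycoprotein, differed by -1.49 (limma with the block, adjusted p = 0.00969) and -1.82 (adjusted p = 0.0244). Podxl, a sialomucin shared by mesothelium, podocytes and endothelium, differed by 1.19 (adjusted p = 0.0183), and was measured at 5.50 to 6.75 FPKM in AdGFP and 10.9 to 19.1 FPKM in AdCre. The other called genes, Aldh1a2 at 0.54 (adjusted p = 0.0327) and Prr15 at -1.11 (adjusted p = 0.0477), are named because their values were seen. Aldh1a2, the retinoic acid producing enzyme of the epicardium, and Aldh1a1 thus moved in opposite directions.

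Of 28 epithelial junction and identity genes 22 were tested, 15 of them higher and 7 lower, with a median of 0.54. None passed without the block, and the calls with it stand against 2.64% of all genes tested as higher and 3.51% as lower. With the block Cldn4, a claudin of tight junctions, and Ppl, the desmosomal plakin periplakin, passed as higher (log2 differences 1.13 and 1.44, limma, adjusted p = 0.0172 and 0.0288). Cldn4 was measured at 0.490, 5.60 and 8.67 FPKM in AdGFP and 1.50, 10.5 and 18.3 FPKM in AdCre. The desmosomal genes Pkp2 and Dsp, which cardiomyocytes also express at their intercalated discs, passed as lower (-0.71 and -0.40, adjusted p = 0.0286 and 0.0397).

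Of 13 other intermediate filament genes 11 were tested. None passed without the block, and with it 4 passed, all as higher, against 2.64% of all genes tested. Synm, the muscle filament protein synemin, was measured at 6.52, 3.59 and 2.67 FPKM in AdGFP and 11.7, 10.4 and 6.60 FPKM in AdCre (log2 difference 1.20, limma with the block, adjusted p = 0.0188). The other 3 called genes, the neuronal filament genes Nefm, Ina and Nefl, had AdGFP means of 0.316, 0.0371 and 0.151 FPKM and AdCre means of 1.6, 0.992 and 0.999 FPKM. They met the minimum mean of 0.5 FPKM over all samples through their AdCre levels, and a gene this low in both groups was not tested, so their differences are given as a description and not as support. Vim, the mesenchymal filament, and Des, that of muscle, differed by -0.05 and -0.19 and did not pass.

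Of 12 factors of the epithelial to mesenchymal transition 10 were higher and 2 lower, with a median of 0.17, and none passed with or without the block. In the fit without the block the 2 smallest p-values were those of Twist2, at 0.460 to 0.599 FPKM in AdGFP and 0.826 to 0.989 FPKM in AdCre, and Tgfb1, at 13.6 to 16.9 and 18.8 to 20.2 FPKM. The groups did not overlap for either gene (limma, adjusted p = 0.416 and 0.455, or 0.149 and 0.133 with the block). With the block the smallest p-value was that of the cadherin gene Cdh2, named after its values were seen, at 86.1 to 99.3 FPKM in AdGFP and 73.9 to 78.3 FPKM in AdCre (log2 difference -0.29, blocked limma, adjusted p = 0.0742). Which cells of the mixed culture gave the Cdh2 level was not tested, so its difference cannot be assigned to this transition.

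No marker of the other cells in the culture passed without the block, and the counts with it stand against 2.64% of all genes called as higher and 3.51% as lower. All 12 cardiomyocyte markers had lower mean log2 levels in AdCre, at a list median of -0.66, and 6 of them were called in the blocked fit, among them Myl2 (-1.12), Pln (-1.31), Tnni3 (-0.82) and Tnnt2 (-0.71). All 10 endothelial markers had higher mean log2 levels, with a median of 0.38, summed levels of 101 to 155 FPKM in AdGFP and 146 to 215 in AdCre, and 4 passed, Eng (0.55), Flt1 (0.60), Cdh5 (0.42) and Egfl7 (0.57). The 9 macrophage markers tested also had higher mean log2 levels, with a median of 0.41, and 2 passed, C1qb (0.50) and Lyz2 (0.51), with sums of 54.4 to 282 FPKM in AdGFP and 95.1 to 353 in AdCre.

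Of 11 fibroblast markers 3 were higher and 8 lower, with a median of -0.24, where Thy1 (0.40) passed as higher and Dcn (-0.79), Lum (-0.49) and Col3a1 (-0.47) as lower with the block. None of 10 smooth muscle and pericyte markers passed, and their median was 0.09. Whether a changed share of any of these cells had a part in the differences of the keratins and mesothelial genes was not tested.

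**Figure D4:**
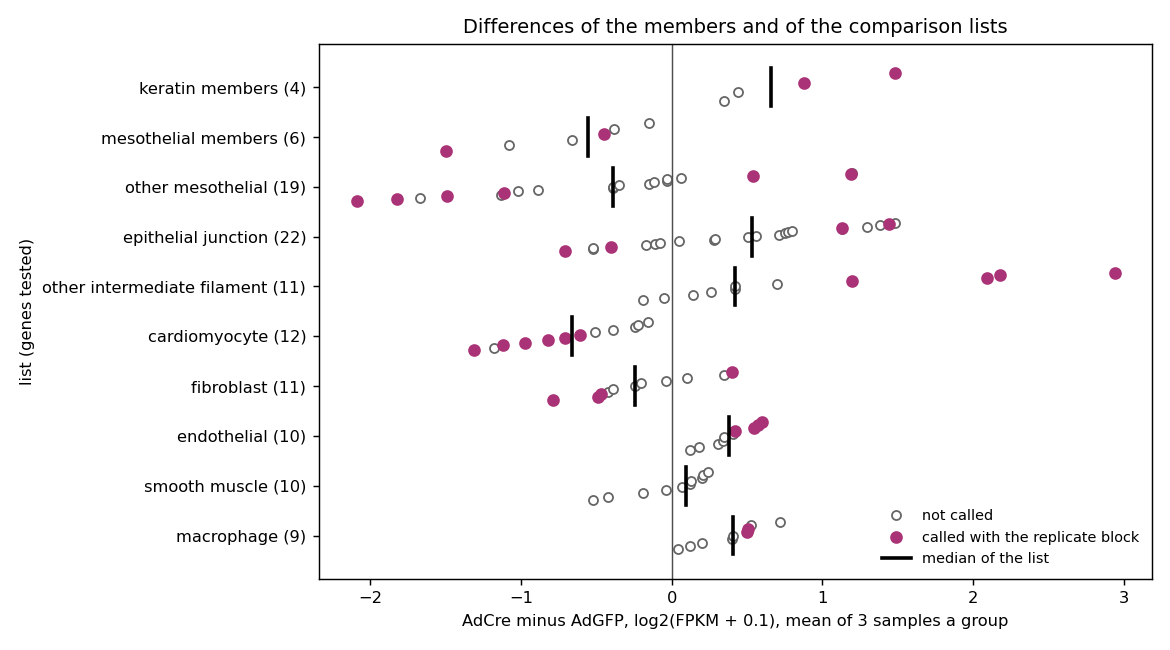
Log2 difference between AdCre and AdGFP for each tested gene (points) of the 10 members and of 8 comparison lists, with the median of each list (black bar) and filled points for genes that passed with the replicate block. The keratin members had a median of 0.66 and the mesothelial members of -0.56, and all cardiomyocyte markers lay below 0 and all endothelial and macrophage markers above it.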

How the data were processed

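RNA-seq of 6 mouse samples was deposited as 1 table of FPKM values made by the authors, with 1 column per sample. The processing notes of the submitters name mm10, fastp, STAR 2.5 and HTSeq 0.6.1, and poly(A) RNA was primed with random hexamers per the labels. Of 54532 gene identifiers 54495 were in GENCODE M21, used for symbols, coordinates and exon lengths, and 37 were not. FPKM times exon length came out as whole reads for 96.86% of 28433 genes with a value above 0. The tolerance was 0.02 reads at low counts and grew with the count above that. After a search over length, with a narrower tolerance, all of them came out as whole reads. Chi-square per degree of freedom between replicates of a group was 44.2 to 142, well above counting noise, and all were kept as samples. The labels call them biological replicates without naming separate cultures, and the p-values measure the spread between these samples.

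Values were tested as log2(FPKM + 0.1), which understates changes of low genes, for the 13794 genes averaging 0.5 FPKM or more, in limma 3.58.1 (R 4.3.3) with an intensity trend and Benjamini-Hochberg adjustment over all genes tested. Replicates carry the numbers 1 to 3 in either group. Deviations from group means correlated at 0.568, 0.268 and 0.506 between same-numbered samples and at -0.497 to 0.036 between others, and same-numbered samples were therefore treated as pairs, a choice made from the values since no label states it. Single values were compared by exact two-sided permutation tests.

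Likeness was the root mean square difference of log2 profiles centred on their means. From each comparison list the genes called with the block were named, at most 4 by smallest p, or where none passed up to 2 with the smallest p. Some others are said to be named after their values were seen. Vim, Des, Krt5, Krt10, Krt14, Krt17, Foxn1 and Sftpc were also named outside this rule, as description. The members and lists were chosen with earlier results of these data known. Alternatives were pseudocounts of 1 and 0.01, other filters, rescaling to TPM, median centring, quantile normalization, no trend, voom on recovered reads, protein-coding genes, fitting the replicate number as a block, and fits that left out each sample in turn. Recovered read sums as denominators and the alternatives of the blocked fit were added after seeing the data. The fits were tested on simulated data. Promoter sequences came from RefSeq (GRCm38.p6), with entries for 6 of the 10 genes. Tables were made in Python 3.11.15 with numpy 2.4.6, pandas 2.3.3, scipy 1.17.1 and matplotlib 3.10.9.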

Additional observations from a re-analysis of the deposited data

How the results depend on the processing

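Without the block none of the 10 genes passed under any of 18 settings, and the number of genes called overall was 0 to 4. With the replicate block 4 members passed among 848 genes, and the count of members was 4 with a mean of at least 1 FPKM, with protein-coding genes and with a pseudocount of 1, 3 with median centring, own read sums or a pseudocount of 0.01, 2 with quantile normalization or TPM, and 5 with voom. Over all genes these blocked fits called 922, 1167, 784, 778, 874, 782, 762, 875 and 1742 genes in that order. Without a filter the block called 17 genes and without the trend 0 (3122 at an unadjusted p under 0.05), no member in either. Leaving out pair 1, 2 or 3 gave 772, 149 and 1 genes and 7, 0 and 0 members. The unblocked count over all genes was 3 with a pseudocount of 1, 4 with no trend, 0 with no filter and with voom (2168 and 1449 at an unadjusted p under 0.05), and 0 to 2 without single samples. The blocked split was 364 higher and 484 lower as deposited, 538 and 337 after rescaling to TPM.

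Krt8 and Krt18 passed in 11 of 15 blocked settings each and kept their direction in all, Lrrn4 and Tbx18 in 7 each, and Krt7 and Wt1 in 0. The sign changed for Krt7 without AdGFP replicate 1 (-0.35) and without AdCre replicate 3 (-0.02), and without AdGFP replicate 3 for Krt19 (-0.30), Upk3b (0.17), Upk1b (0.63) and Wt1 (0.09). Upk1b also changed sign without AdCre replicate 2 (0.26), and with the block without pair 2 (0.27) and without pair 3 (0.21). Leaving out single samples, the differences spanned -0.35 to 1.11 for Krt7, -0.30 to 1.17 for Krt19, -1.66 to -0.38 for Msln, -2.21 to -0.85 for Lrrn4, -1.48 to 0.17 for Upk3b, -0.94 to 0.63 for Upk1b and -0.86 to 0.09 for Wt1. The cause was not tested. The median over the members was -0.26, ranged from -0.58 to 0.13 without single samples, and changed sign without AdGFP replicate 3 (0.13) and without AdCre replicate 2 (0.10). Without single samples the median ranged from 0.65 to 1.09 over the keratins and from -1.20 to -0.14 over the other 6 genes. With the block, leaving out pairs, that over the keratins ranged from 0.67 to 1.04 and that over the 6 genes from -1.0 (without pair 1) to -0.40. Depth does not limit these genes, but 3 samples a group cannot show by permutation a p under 0.1.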

Other observations

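The keratin family as a whole held 50 genes named Krt and a number, of which 18 were at 0 in all samples and 9 were tested. Of the 5 tested outside the 10 genes above, none passed without the replicate block. With it Krt80 was the one that passed, against 2.64% of all genes tested called as higher. Krt80 was measured at 8.80, 1.70 and 1.07 FPKM in AdGFP and 13.9, 5.46 and 4.10 FPKM in AdCre, where the groups overlapped (log2 difference 1.38, limma with the block, adjusted p = 0.0346). Its order over replicates, highest in replicate 1, was that of Krt19 and not that of Krt8.

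Krt5, Krt14 and Krt17, keratins of basal and stratified epithelium, followed the replicate number almost entirely, whereas Krt10, also of stratified epithelium, had 40.2% of its variance with the number. Krt14 was measured at 0.207, 7.20 and 9.62 FPKM in AdGFP and 0.355, 6.78 and 9.79 FPKM in AdCre, and Krt5 at 0, 5.87 and 1.55 FPKM and 0.0711, 4.90 and 1.61 FPKM. Krt17 was measured at 3.44, 14.8 and 21.1 FPKM in AdGFP and 3.68, 14.4 and 19.2 FPKM in AdCre. The replicate number accounted for 99.4% of the variance of Krt14, 98.9% of that of Krt5 and 99.8% of that of Krt17, and replicate 1 of both groups was lowest. The epithelial adhesion genes Cdh1 and Epcam, named after their values were seen, were likewise lowest in replicate 1, at 0.301 and 0.0793 FPKM in AdGFP and 0.874 and 1.52 FPKM in AdCre, and highest in replicate 3. The thymic epithelial regulator Foxn1 was at 0 to 0.353 FPKM, Trp63 of basal epithelium at 0.271 to 0.863 FPKM, and the lung surfactant gene Sftpc at 0 to 0.349 FPKM. None of 5 thymus and squamous markers and none of 4 Schwann cell and neuron markers tested passed. Of 10 lung epithelium markers 2 were tested, and neither passed without the block. With it Ager passed as higher (1.23) and Hopx as lower (-0.94), against 6.15% of all genes tested. Ager was measured at 0.644 to 0.884 FPKM in AdGFP and 1.75 to 1.94 FPKM in AdCre, and Hopx at 14.3 to 37.9 and 9.45 to 14.7 FPKM. Which cells of the mixed culture gave these levels was not tested. None of the 4 other uroplakin genes reached the level needed for testing.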
